A study of Mus musculus with 10 samples.

Results

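The genes described here encode the Eph receptors and their ephrin ligands, the semaphorins and their plexin receptors, Slits and Robo receptors, and netrins and their Unc5 receptors. They were chosen by the pattern of their symbols (Eph, Efn, Sema, Plxn, Nrp, Robo, Slit, Ntn and Unc5 genes) among named probes that at least 3 of 10 arrays detected (detection p-value up to 0.05), with the brightest probe standing for each gene. This gave 27 genes out of 9401 named genes measured: 5 Eph receptors, 5 ephrins, 8 semaphorins, 3 plexins, 3 Slit and Robo genes, and 3 netrin and Unc5 genes. The same pattern matched 71 genes of the RefSeq gene table, and the other 44, among them both neuropilins, were not analysed here since no named probe of theirs was detected on enough arrays.

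G-CCE is a line of mouse embryonic stem cells (mESCs), grown feeder-free on gelatin. No construct is described for WT, and the line labelled MMTR KD carried an shRNA against MMTR/Dmap1 in the lentiviral vector pLV-TH. MMTR-F, MMTR-N and MMTR-C carried Flag-tagged full-length MMTR, its N-terminal fragment or its C-terminal fragment in pcDNA3. All 5 lines were sampled at d0, with leukemia inhibitory factor (LIF), and at d3, after 3 days without LIF, with 1 bead array each. Per the methods, differentiation began in hanging drops and the aggregates were later moved to bacterial dishes, so the days differ in aggregation as well as in LIF. MMTR is another name of Dmap1, a subunit of the Tip60-p400 histone acetyltransferase complex, and the comparisons ask how differentiation and altered MMTR change gene expression. The shRNA line came from cells isolated by their EGFP fluorescence, and per the methods the overexpressing lines were selected with puromycin. The paper also calls its controls mock cells, and whether WT received an empty vector or a selection is not stated. Nothing in the labels says that any condition was cultured more than once.

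All signals given are quantile-normalized log2 values, and the lowest detectable signal lay between 8.19 and 8.28 on the 10 arrays. Raw median signals were 218 to 244 at d0 and 337 to 347 at d3, so day and the overall brightness of the arrays cannot be told apart. The Dmap1 probe read 10.59 for WT, 12.00 for MMTR-C, 10.78 for the library labelled MMTR KD, 10.52 for MMTR-N and 10.48 for MMTR-F at d0, and 10.42, 12.00, 10.38, 10.34 and 10.18 in that order at d3. Values given without line names below keep this order. Dmap1 was raised only in MMTR-C and not lowered in MMTR KD, and where on the mRNA the probe lies was not used here, so these names are the labels of the libraries. The mESC state was checked with marker lists: 8 of 9 measured naive pluripotency genes fell and all 6 primed epiblast genes rose between d0 and d3. Of 6 general pluripotency genes, 3 fell (Sox2, Lin28a and Dppa5a) and 1 rose (Sall4), while Pou5f1 and Utf1 did not pass the day test. The naive genes summed to a linear signal of 73530 to 99925 at d0 and 13934 to 43508 at d3. Few markers of other cell types were measured: 2 of 7 neural markers (both rose), 1 of 7 mesoderm markers (rose), 2 of 6 endothelial markers (both fell) and 1 of 7 fibroblast markers (rose), while 4 of 8 primitive endoderm markers were measured (1 rose and 2 fell).

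Guidance molecules were named for steering axons, but they act wherever cells touch. Ephrins and Eph receptors are both held at the membrane and signal in both directions when neighbouring cells meet, which sorts cells and sets tissue boundaries. Semaphorins act through plexins, Slits through Robo receptors and netrins through Dcc, neogenin and Unc5 receptors, and most of these receptors end on small GTPases that control actin. In the early embryo Eph and ephrin genes are used as the epiblast organizes into an epithelium and forms the germ layers.

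Promoter sequence was examined because the study concerns a chromatin complex that acts at promoters. RefSeq promoters (GRCm38.p6, 250 bases before to 50 after the transcription start) were found for 25 of the 27 genes, 34 promoters in all, with none for Sema3f and Sema6a. The 34 promoters held a median of 15.5 CpG dinucleotides, against 7 over all 32851 promoters of the table. Promoters of the genes that rose at d3 (9 genes, given with the day comparison) held 3 to 41 CpG with a median of 29 (8 promoters of 8 genes), those of the genes that fell 2 to 28 with a median of 8.5 (10 promoters of 6 genes), and those of the other genes 2 to 36 with a median of 16.5 (16 promoters of 11 genes). These are descriptions of the sequence, and no binding or methylation was measured here. The 250 bases before the start are shown for 4 genes on which the results turn, 2 that rose most among receptors and ephrins (Epha1 and Efna5) and 2 that fell with a spread between lines (Epha2 and Robo4). Each is written 5′ to 3′ on the strand of the gene with its CpG dinucleotides in capitals. The windows are chr6:42373269-42373518 (minus strand) for Epha1, chr17:62881318-62881567 (minus strand) for Efna5, chr4:141300971-141301220 (plus strand) for Epha2 and chr9:37401722-37401971 (plus strand) for Robo4.
Epha1: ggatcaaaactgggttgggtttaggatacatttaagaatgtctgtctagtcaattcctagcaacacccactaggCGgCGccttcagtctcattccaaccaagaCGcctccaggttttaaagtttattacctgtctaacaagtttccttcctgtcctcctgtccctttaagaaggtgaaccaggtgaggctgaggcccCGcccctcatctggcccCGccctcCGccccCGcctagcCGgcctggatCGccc
Efna5: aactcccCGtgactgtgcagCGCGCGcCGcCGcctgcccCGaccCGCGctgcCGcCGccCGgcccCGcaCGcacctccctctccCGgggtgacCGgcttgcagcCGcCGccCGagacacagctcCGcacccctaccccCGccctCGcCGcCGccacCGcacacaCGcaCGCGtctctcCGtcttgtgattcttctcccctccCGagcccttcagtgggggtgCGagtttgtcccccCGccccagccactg
Epha2: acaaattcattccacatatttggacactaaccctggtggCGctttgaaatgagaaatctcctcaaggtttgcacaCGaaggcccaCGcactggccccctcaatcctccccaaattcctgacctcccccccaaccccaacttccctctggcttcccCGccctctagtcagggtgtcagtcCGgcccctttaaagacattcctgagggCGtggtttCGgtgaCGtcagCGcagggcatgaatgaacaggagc
Robo4: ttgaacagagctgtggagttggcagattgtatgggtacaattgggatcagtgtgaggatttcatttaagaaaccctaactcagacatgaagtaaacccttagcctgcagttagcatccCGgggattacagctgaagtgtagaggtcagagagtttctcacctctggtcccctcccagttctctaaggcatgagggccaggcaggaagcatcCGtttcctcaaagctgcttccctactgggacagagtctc
The Efna5 window held 32 CpG, spread over its whole length, whereas the Robo4 window held 2. The Epha1 and Epha2 windows held 9 each, and in Epha1 these lie mostly toward the start site. Of 4 short motifs looked for on both strands of the 300 bases, CACGTG (the E-box bound by Myc and Max) was in 1 of the 34 promoters, of Sema4b (2.94%, against 7.15% of all promoters). CCGGAAG (an Ets core) was in 1, of Plxnb1 (2.94%, against 8.86%), and TAATCC (bound by Otx2) was in 1, of Robo4 (2.94%, against 7.06%). AAGGTCA (bound by Esrrb) was in 3, of Ntn5, Sema4b and Sema5a (8.82%, against 4.72%).

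Between d0 and d3, Epha1, Sema6a, Efna5, Ephb4 and Unc5b rose and Sema4a, Sema4b and Epha2 fell, in the same direction in each of the 5 lines with the brightest probe of each gene. Across the 5 lines, 9 of the 27 genes rose (33.3%, against 26.0% of all named genes), 6 fell (22.2%, against 25.6%) and 12 did not pass the test. The test was limma with line and day as terms, a two-sided p adjusted by Benjamini-Hochberg over all 19857 probes kept, and a threshold of 0.05. The shares of genes called were thus near those of all genes, and the median change was 0.13 on the log2 scale against 0.00 for all named genes. With median scaling in place of quantile normalization 15 rose and 5 fell, the 6 added rises being the dim genes Efna1, Efna4, Epha4, Epha7, Plxnb1 and Sema4d. The shares of all named genes called with median scaling are not given here, so these 2 counts cannot be set against a background. Normexp background correction gave larger changes, by more than 1.5 times in 12 of the 15 genes that passed, so the size of a change depends on the treatment of the background. The arrays of d0 and d3 did not overlap in 10 genes (37.0%, against 26.2% of all named genes). The probes of the 27 genes were dim, with a median log2 signal of 8.64 against 9.60 for all named genes. Of these, 15 were detected on all 10 arrays and the other 12 on 6 to 9. Slit3 (1 array of d0 and 5 of d3) and Sema6a (2 and 5) met the filter of 3 arrays only through d3. Plxna2 (5 and 1) met it only through d0. Each was thus included through the day on which it was higher, and its direction is not independent of the filter. Day values rest on 5 lines that share a parental line, so they measure the spread between lines, and a lower signal can come from fewer cells with the RNA or less RNA in each.

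**Figure D1:**
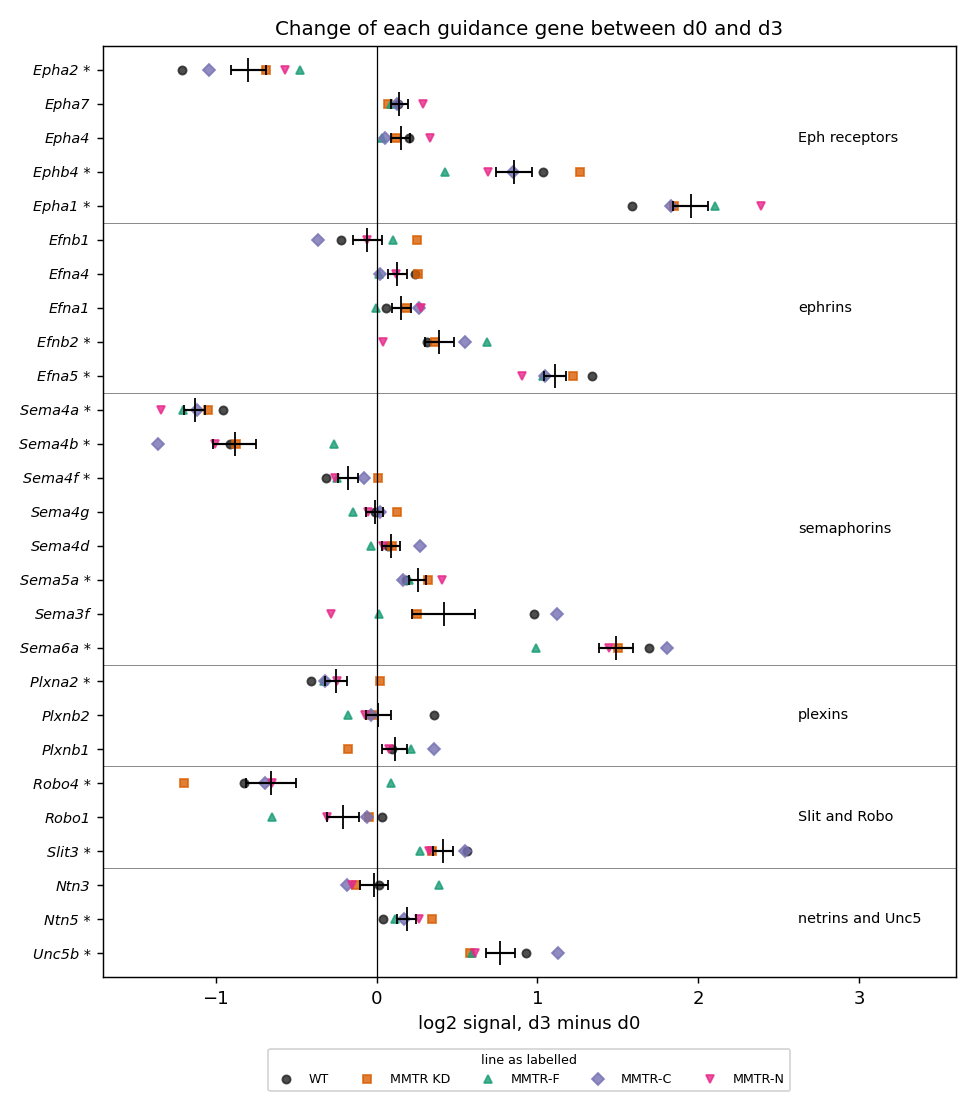
The horizontal axis is the difference in log2 signal between d3 and d0, and each row is a gene, grouped by family; coloured points are the 5 lines, black bars the fitted mean and its standard error (n = 5 lines), and an asterisk marks a gene that passed the test. Epha1 lies farthest to the right at 1.95 and Sema4a farthest to the left at -1.13.

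Among Eph receptors, Epha1, an EphA receptor that binds A-type ephrins, rose more than any other gene of the group. It read 8.75 for WT, 8.42 for MMTR-C, 8.68 for MMTR KD, 8.42 for MMTR-N and 8.22 for MMTR-F at d0, and 10.34, 10.25, 10.53, 10.81 and 10.32 in that order at d3. Every array of d3 lay above every array of d0, and the gap between the highest and lowest line was 0.57 at d3 and 0.54 at d0. The log2 change was 1.95 ± 0.11 (SE, n = 5 lines, limma adjusted p = 2.1e-05), a 3.87-fold higher signal. The other 2 Epha1 probes changed by 0.72 and 0.60 and also passed, the mean over probes was 1.09, and normexp correction gave 3.40.
Ephb4, the receptor of ephrin-B2 known from the separation of arteries and veins, read 9.82 for WT, 9.72 for MMTR-C, 9.40 for MMTR KD, 9.46 for MMTR-N and 9.65 for MMTR-F at d0. At d3 it read 10.85, 10.57, 10.67, 10.15 and 10.08, highest in WT and lowest in MMTR-F and MMTR-N, with no overlap between days. It rose by 0.85 ± 0.11 (SE, n = 5, limma adjusted p = 0.00058). The other 2 Ephb4 probes rose by 0.29 and 0.28, both past the threshold, so the size of the change depends on the probe. In MMTR-F these 2 probes did not rise, with 9.49 at d0 and 9.48 at d3 for the one and 8.30 and 8.24 for the other, which was not detected at d3.
Epha2, the EphA receptor present in undifferentiated mESCs, went the other way. It read 9.71 for WT, 9.62 for MMTR-C, 9.78 for MMTR KD, 9.82 for MMTR-N and 9.63 for MMTR-F at d0, and 8.51, 8.58, 9.09, 9.24 and 9.16 at d3. The d0 arrays were nearly level, and at d3 WT and MMTR-C had dropped farther than the other three lines. Over the lines it fell by 0.80 on the log2 scale (SE 0.11, n = 5, limma adjusted p = 0.00074). The other EphA receptors, Epha4 and Epha7, were near the detection limit at 8.14 to 8.63, with changes of 0.15 and 0.14 that did not pass (adjusted p = 0.068 and 0.057).

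Of the ephrins, only Efna5, a ligand anchored to the membrane by a lipid and bound by EphA receptors, moved by more than 1. It read 8.76 for WT, 8.58 for MMTR-C, 9.02 for MMTR KD, 8.58 for MMTR-N and 8.58 for MMTR-F at d0. At d3 the values were 10.10, 9.63, 10.24, 9.48 and 9.61, so that WT and MMTR KD were above the 3 pcDNA3 lines on both days. The rise was 1.11 ± 0.07 (SE, n = 5, limma adjusted p = 3.3e-05), or 2.16-fold. Efnb2, a transmembrane ephrin and the ligand of Ephb4, rose by 0.39 ± 0.09 (adjusted p = 0.0082), the range being 8.22-8.75 at d0 and 8.48-9.11 at d3, and was higher at d3 in all 5 lines although the days overlap. Efna1, Efna4 and Efnb1 changed by 0.15, 0.13 and -0.06 and did not pass (adjusted p = 0.063, 0.097 and 0.62). Efnb2 and the gene of its receptor, Ephb4, thus both rose over the 5 lines, but the sizes of their rises differed by line. Efnb2 rose by 0.31, 0.55, 0.37, 0.04 and 0.68, and Ephb4 by 1.04, 0.85, 1.26, 0.69 and 0.43. MMTR-F had the largest rise of Efnb2 and the smallest of Ephb4. Whether the 2 genes change together was not tested.

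The semaphorins divided between rises and falls: 2 of 8 rose, 3 fell and 3 did not pass. Sema6a, a transmembrane semaphorin that binds A-type plexins, was near or below the detection limit at d0, with 8.31 for WT, 8.13 for MMTR-C, 8.35 for MMTR KD, 8.09 for MMTR-N and 8.04 for MMTR-F, and it was not detected in the 3 pcDNA3 lines. At d3 it read 10.01, 9.94, 9.85, 9.54 and 9.03 and was detected in every line, with MMTR-F lowest. The fitted rise was 1.49 ± 0.11 (SE, n = 5, limma adjusted p = 5.3e-05). Against the lowest detectable signal, the signal at d3 was at least 1.77-fold higher in MMTR-F, at least 3.30-fold higher in MMTR-C and at least 2.55-fold higher in MMTR-N. Sema5a, another transmembrane semaphorin, rose by 0.25 ± 0.06 (adjusted p = 0.0068), its range being 8.20-8.34 at d0 and 8.39-8.60 at d3.
The class 4 semaphorins, transmembrane proteins best known from immune cells and neurons, carried the falls. Sema4a read 10.42 for WT, 10.78 for MMTR-C, 10.55 for MMTR KD, 10.50 for MMTR-N and 10.60 for MMTR-F at d0, and 9.46, 9.66, 9.51, 9.16 and 9.40 at d3. The days did not overlap and the lines moved alike. It fell by 1.13 on the log2 scale (SE 0.06, n = 5, limma adjusted p = 2.5e-05).
Sema4b read 11.32 for WT, 11.83 for MMTR-C, 11.42 for MMTR KD, 11.35 for MMTR-N and 11.06 for MMTR-F at d0, and 10.41, 10.47, 10.55, 10.35 and 10.80 at d3. MMTR-C was highest and MMTR-F lowest at d0, and their order was reversed at d3. Over the lines Sema4b fell by 0.88 (SE 0.13, n = 5, limma adjusted p = 0.0012). Sema4f changed by -0.18 and only just passed (adjusted p = 0.046). The change was -0.03 with median scaling (adjusted p = 0.69) and -0.03 as the mean over probes (adjusted p = 0.68), since its other probe changed by 0.12. With a filter of 5 detected arrays its adjusted p was 0.054, and without WT, MMTR-F, MMTR-C or MMTR-N its adjusted p was 0.14, 0.12, 0.062 or 0.12. Sema4d and Sema4g changed by 0.09 and -0.01 and did not pass. Sema3f, a secreted semaphorin that repels axons and blood vessels, changed by 0.42 ± 0.20 and did not pass either (adjusted p = 0.11; 0.036 without MMTR-N). Its lines went different ways, as given with the line comparisons.

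Of the semaphorin receptors, 3 plexins were measured. Plxnb2, a receptor of class 4 semaphorins, read 8.97 for WT, 9.23 for MMTR-C, 9.07 for MMTR KD, 9.10 for MMTR-N and 9.03 for MMTR-F at d0, and 9.33, 9.19, 9.04, 9.02 and 8.86 at d3. The days overlapped, and the change was 0.01 ± 0.08 (limma adjusted p = 0.93). Plxnb1, the receptor of Sema4d, changed by 0.11 and did not pass. Plxna2, a receptor of class 6 semaphorins, fell by 0.25 (SE 0.07, adjusted p = 0.017), and 4 of the 5 lines did not detect it at d3. Against the lowest detectable signal it was at least 1.10-fold lower in WT, 1.14-fold in MMTR-F, 1.12-fold in MMTR-C and 1.10-fold in MMTR-N, and MMTR KD differed by 0.02. The call was lost without WT, MMTR-F or MMTR-C (adjusted p = 0.056, 0.053 and 0.055), with no line term (adjusted p = 0.28) and with median scaling, which gave -0.11 (adjusted p = 0.15). Sema6a and Plxna2 each met the filter only through the day on which it was higher. Their opposite directions are therefore not read as a result about the pair.

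Among Slit and Robo genes, Robo1, the receptor of Slits on growing axons, read 10.43 for WT, 10.69 for MMTR-C, 10.72 for MMTR KD, 10.47 for MMTR-N and 10.84 for MMTR-F at d0, and 10.46, 10.63, 10.67, 10.16 and 10.19 at d3. MMTR-F and MMTR-N were the lowest at d3, and the change of -0.21 ± 0.10 did not pass (limma adjusted p = 0.12). With median scaling it was -0.41 and passed (adjusted p = 0.0082), and without MMTR-F it was -0.10 (adjusted p = 0.32). Slit3, a secreted Slit, rose by 0.41 ± 0.06 (adjusted p = 0.0012), its range being 8.04-8.28 at d0, where only MMTR KD was detected, and 8.36-8.63 at d3. Against the lowest detectable signal it was at least 1.33-fold higher in WT and MMTR-C, 1.22-fold in MMTR-N and 1.11-fold in MMTR-F. Robo4, a Robo receptor known from endothelial cells, fell by 0.66 (SE 0.15, adjusted p = 0.0093), in 4 of 5 lines. With the line term left out its adjusted p was 0.15.

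Unc5b, a netrin receptor, had 8.26 for WT, 7.99 for MMTR-C, 8.09 for MMTR KD, 8.20 for MMTR-N and 8.23 for MMTR-F at d0, with MMTR KD and MMTR-C not detected. At d3 it read 9.19, 9.12, 8.67, 8.81 and 8.83, above every array of d0. It rose by 0.77 ± 0.09 (SE, n = 5, limma adjusted p = 0.00039), and the rise was at least 1.37-fold in MMTR KD and at least 1.87-fold in MMTR-C. Ntn5, a secreted netrin, rose by 0.19 ± 0.06 (adjusted p = 0.031), but without MMTR KD, MMTR-F, MMTR-C or MMTR-N the adjusted p was 0.096, 0.051, 0.070 or 0.087, and with no line term it was 0.12. Ntn3, also secreted, read 8.67 for WT, 8.89 for MMTR-C, 8.64 for MMTR KD, 8.70 for MMTR-N and 8.40 for MMTR-F at d0 and 8.68, 8.71, 8.51, 8.55 and 8.78 at d3. Its days overlapped, with a change of -0.01 (adjusted p = 0.91).

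**Figure D2:**
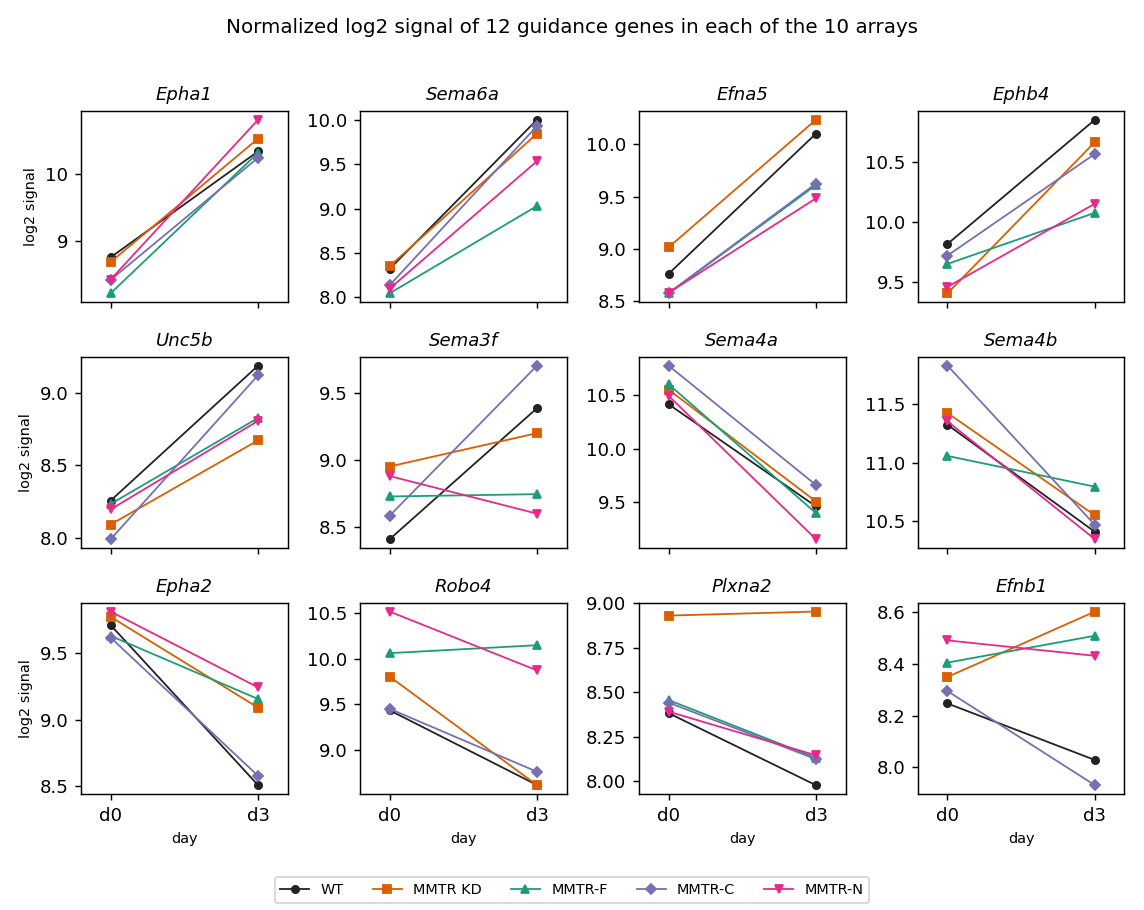
Each panel shows the log2 signal of a gene (vertical axis, own scale) at d0 and d3 (horizontal axis), with a line joining the arrays of each cell line; each point is 1 array. Epha1 rises in each of the 5 lines, from 8.22-8.75 to 10.25-10.81. Robo4 goes from 10.06 to 10.15 in MMTR-F and falls from 10.52 to 9.87 in MMTR-N, the 2 highest lines on each day. Plxna2 is higher in MMTR KD than in the other lines on both days.

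Genes that act around and downstream of these receptors were taken from a list of 64 adaptors, GTPase regulators, co-receptors and cytoskeletal proteins, of which 39 were measured. Of these, 16 rose (41.0%, against the 26.0% of all named genes) and 7 fell (17.9%, against 25.6%), with a median change of 0.15 on the log2 scale. The rises were largest in Trio, an exchange factor for Rac used downstream of netrin receptors (1.67 ± 0.20, SE, n = 5, limma adjusted p = 0.00038), and in the heparan sulfate proteoglycan Gpc1, a glypican that binds Slits (1.11 ± 0.09). They were followed by Grip1, a PDZ scaffold of ephrin-B proteins (1.00 ± 0.09), Dpysl2, also called CRMP2 and a mediator of semaphorin signalling (0.89 ± 0.12), and Srgap3, a GTPase activating protein that binds Robo (0.66 ± 0.09). On the other side, the CRMP family member Dpysl3 fell by 1.03 (SE 0.07, limma adjusted p = 5.3e-05) and Cfl1, the actin-severing protein cofilin, by 0.72 (SE 0.08). Limk2, a kinase that inactivates cofilin, fell by 0.47 (SE 0.12), and the actin-oxidizing enzymes Mical3 and Mical1, which act below plexins, fell by 0.34 (SE 0.07) and 0.29 (SE 0.08).

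Within single lines, differences of at least 0.5 between d3 and d0 were counted without a test, since each condition had 1 array. They were found in 11 genes in WT (40.7%, against 21.9% of all named genes; 7 higher and 4 lower), 9 in MMTR KD (33.3%, against 19.8%; 5 and 4) and 7 in MMTR-F (25.9%, against 16.0%; 5 and 2). In MMTR-C 12 genes reached it (44.4%, against 21.7%; 8 and 4) and in MMTR-N 9 (33.3%, against 21.0%; 5 and 4). These counts include Slit3 in WT and MMTR-C and Unc5b in MMTR KD, which were not detected there at d0. Against the lowest detectable signal their rises were at least 0.41, 0.41 and 0.45, so they are not shown to reach 0.5. The count was lowest in MMTR-F and highest in MMTR-C, and over all named genes it was lowest in MMTR-F and highest in WT.

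More of the genes stood at least 0.5 from WT at d3 than at d0 in the libraries labelled MMTR KD, MMTR-F and MMTR-N, whereas none did so at d3 in MMTR-C. The number of the 27 genes at least 0.5 from the WT array of d0 was 2 for MMTR KD (7.41%, against 12.2% of all named genes), 2 for MMTR-F (7.41%, against 6.51%), 1 for MMTR-C (3.70%, against 5.98%) and 1 for MMTR-N (3.70%, against 4.28%). At d3 it was 0 for MMTR-C (against 1.33%), 4 for MMTR KD (14.8%, against 8.05%), 5 for MMTR-F (18.5%, against 9.00%) and 5 for MMTR-N (18.5%, against 10.7%). The MMTR KD count at d3 includes Efnb1, which was not detected in WT. Its difference of 0.58 was at least 0.36 against the lowest detectable signal, so it is not shown to reach 0.5. In MMTR-F and in MMTR-N, 2 genes were above WT and 3 below. All of these counts use the same WT array of a day, so they are not independent of each other, and no single difference has a replicate check. Normexp background correction raised the pairs of gene and line past 0.5 at d0 from 6 to 37 and at d3 from 14 to 39. MMTR KD then had 10 genes at d0 and 9 at d3, and 3 on each day with median scaling, and MMTR-C at d3 had 4 with normexp correction, 1 with median scaling and 3 against the median of the 5 lines.

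**Figure D3:**
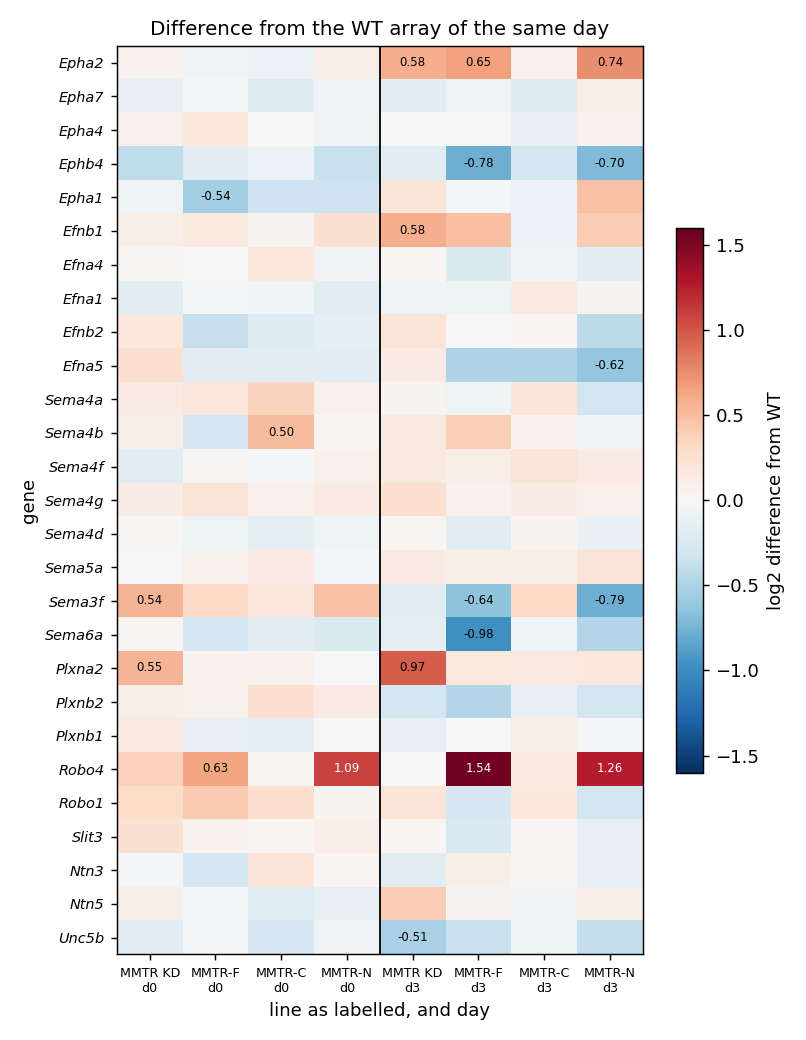
Colour gives the difference in log2 signal from the WT array of the same day (red above, blue below) for each gene (rows) in each line and day (columns); values of 0.5 or more in size are printed. At d3 no MMTR-C value reaches 0.5, and the Robo4 row holds the largest values, 1.54 in MMTR-F and 1.26 in MMTR-N. Normalized values are shown also where an array did not detect the gene.

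Robo4 differed most between lines. It read 9.43 for WT, 9.45 for MMTR-C, 9.81 for MMTR KD, 10.52 for MMTR-N and 10.06 for MMTR-F at d0, and 8.61, 8.76, 8.61, 9.87 and 10.15 at d3. MMTR-F and MMTR-N were the 2 highest arrays on each day, and at d3 they stood apart from the other three. The MMTR-F array exceeded WT by 0.63 at d0 and 1.54 at d3, and the MMTR-N array by 1.09 and 1.26, or 1.39 and 1.12 at d3 when set against the MMTR-C array instead. Over both days, the limma estimates for MMTR-F, 1.08 ± 0.24, and for MMTR-N, 1.17 ± 0.24 (SE, n = 2 arrays each) did not pass (adjusted p = 0.10 and 0.14). The 2 measured endothelial markers, Tek and Esam, summed to a linear signal of 984 for WT, 1036 for MMTR-C, 1217 for MMTR KD, 1095 for MMTR-N and 841 for MMTR-F at d0, and 662, 646, 628, 654 and 601 at d3. Their sum at d0 was thus above WT in MMTR-N and below it in MMTR-F. At d3 Tek averaged a log2 signal of 8.18, below the lowest detectable signal of that day, and Esam averaged 8.44. The sums of d3 therefore lie near background, and the order of the lines in them is not read. Cdh5, Tie1, Cldn5 and Emcn had no named probe detected on enough arrays. The part of endothelial cells in the Robo4 difference was not tested.
Epha2 was also higher than WT at d3 in MMTR-F, MMTR-N and MMTR KD, by 0.65, 0.74 and 0.58, and was 0.07 above it in MMTR-C. The naive pluripotency genes summed at d3 to a linear signal of 13934 for WT, 14760 for MMTR-C, 24835 for MMTR KD, 33428 for MMTR-N and 43508 for MMTR-F, so this list and Epha2 were both lowest in WT and MMTR-C. The part of the cell state in these differences was not tested.

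Sema3f, Ephb4 and Sema6a were lower than WT at d3 in MMTR-F, and Sema3f, Ephb4 and Efna5 in MMTR-N. Sema3f read 8.41 for WT, 8.58 for MMTR-C, 8.95 for MMTR KD, 8.88 for MMTR-N and 8.73 for MMTR-F at d0, and 9.38, 9.70, 9.20, 8.60 and 8.74 at d3. Between the days it went up in WT and MMTR-C, by 0.98 and 1.12, differed by 0.02 in MMTR-F, and dropped by 0.28 in MMTR-N. The other Sema3f probe read 9.00 in WT and 9.01 in MMTR-C at d3, 8.60 in MMTR KD, and 8.19 in MMTR-F and 8.11 in MMTR-N, where it was not detected. The pattern was therefore seen with both probes of the gene, which were hybridized to the same RNA.
Ephb4 was lower than WT at d3 by 0.78 in MMTR-F and by 0.70 in MMTR-N, or 0.49 and 0.41 below the MMTR-C array. The second Ephb4 probe read 10.13 for WT, 10.07 for MMTR-C, 9.81 for MMTR KD, 9.40 for MMTR-N and 9.48 for MMTR-F at d3, again lowest in MMTR-F and MMTR-N. Sema6a was 0.98 below WT in MMTR-F and 0.47 below it in MMTR-N, and Efna5 was 0.62 below WT in MMTR-N. The primed epiblast genes summed at d3 to 80999 for WT, 79443 for MMTR-C, 65305 for MMTR KD, 41969 for MMTR-N and 48921 for MMTR-F. Dnmt3b averaged a log2 signal of 15.41 at d3, against 9.50 to 12.93 for the rest of the list, so the sum mostly follows Dnmt3b. The sum was lowest in the lines in which Sema3f and Ephb4 were lowest. The part of the cell state in this was not tested.

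In the library labelled MMTR KD, Plxna2 was higher than in the other lines on both days. It read 8.93 for MMTR KD at d0, against 8.38 for WT, 8.44 for MMTR-C, 8.39 for MMTR-N and 8.46 for MMTR-F. At d3 it read 8.95 for MMTR KD and 7.98, 8.12, 8.15 and 8.13 for the other lines in that order, which were all below detection. Only MMTR KD kept a detectable signal at d3, at least 1.64-fold above that of WT. Over both days the difference from WT was 0.76 ± 0.11 (SE, n = 2 arrays each, limma adjusted p = 0.021). It was alone among the 27 genes in passing this test in MMTR KD (3.70%, against 4.36% of all named genes), and none passed in MMTR-C (against 0.0319%), MMTR-N (against 0.128%) or MMTR-F (against 0.160%). An unadjusted limma p under 0.05 was reached by 3 genes in MMTR-C and by 4 in each of the other lines. The share of all named genes at that threshold is not given here, so no excess can be read from these counts. The adjusted p of Plxna2 was 0.095 without the WT array of d0, 0.078 without that of d3 and 0.068 without the MMTR KD array of d3. MMTR KD also stood apart in the summed linear signal of the 4 measured primitive endoderm markers (Sox7, Dab2, Col4a1 and Lamb1). The sum was 5992 there against 1892 to 2531 in the other lines at d0, and 4909 against 2210 to 2781 at d3. Which of the 4 markers carried the difference is not given here. Gata4, Gata6, Sox17 and Pdgfra had no named probe detected on enough arrays. The mesoderm marker Mixl1 read 563 in MMTR KD at d3, against 303 to 351 in the other lines, and the part of other cell types in the Plxna2 difference was not tested.
Of the 27 genes, 1 lies on chromosome 8, Efnb2. Of 194 named genes that were lower in MMTR KD over both days, 113 were on chromosome 8, and the 528 named genes on it had a median difference from WT of -0.31. Efnb2 did not follow them, exceeding WT by 0.16 at d0 and 0.22 at d3. At d3 Efnb1, a transmembrane ephrin, read 8.60 in MMTR KD and 8.51 and 8.43 in MMTR-F and MMTR-N, and was not detected in WT and MMTR-C, at 8.03 and 7.93. In MMTR KD it was at least 1.29-fold higher than in WT, and Unc5b was 0.51 lower.

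The lines stood farther apart at d3 than at d0 in most of these genes. The median gap between the highest and the lowest line was 0.29 at d0 and 0.47 at d3 over the 27 genes, while over all named genes it was 0.37 and 0.34. The gap was wider at d3 in 22 genes (81.5%, against 46.2% of all named genes). It was wider in 15 genes with median scaling (55.6%, against 33.5%) and in 19 with normexp correction (70.4%, against 46.1%). Leaving out any line gave 18 to 21, for which the share of all named genes is not given here. Sema6a, Slit3 and Unc5b were not detected in some lines at d0, so their gaps at d0 lie between values near background. Robo4, Sema3f and Sema6a had the widest gaps at d3, at 1.54, 1.10 and 0.98. The Plxna2 gap of 0.97 had the undetected WT array as its low end. Against the lowest detectable signal it was at least 0.71. Ephb4, Efna5 and Epha2, detected on all arrays, had gaps of 0.78, 0.75 and 0.74. Sema4b was the clearest exception, with 0.77 at d0 and 0.45 at d3.

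**Figure D4:**
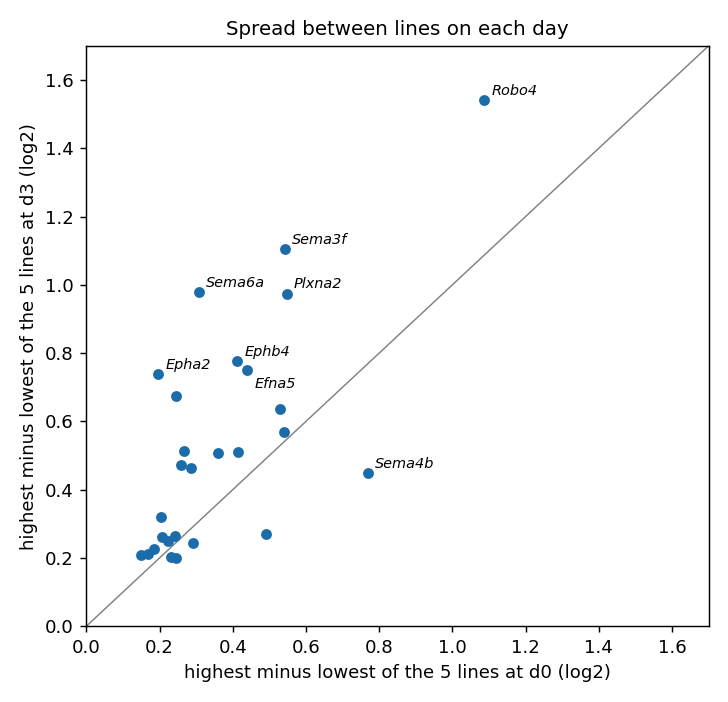
Each point is 1 of the 27 genes, with the gap between the highest and lowest of the 5 lines in log2 signal at d0 on the horizontal axis and at d3 on the vertical axis; the grey line marks equal gaps. 22 genes lie above it.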

How the data were processed

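Total RNA of 10 mESC samples, 1 per line and day, was biotin-labelled and hybridized to Illumina Mouse WG-6 v2 bead arrays. The authors deposited the bead signal intensity of 45281 probes per array without background subtraction and a detection p-value for each. They also deposited log2 values of 16652 probes that passed a detection filter, quantile normalized. Per the labels the software was BeadStudio 3.2 and lumi, while the methods name GenomeStudio.

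The deposited intensities of the 19857 probes that 3 or more of the 10 arrays detected (p-value up to 0.05) were log2-transformed and then quantile normalized. Symbols came from the probe table supplied with the series, which covers 14281 kept probes and 9401 symbols, so genes of other probes are not reported. The brightest probe stood for a gene. Day and line effects were fitted together with limma 3.58.1 in R 4.3.3 (residual df 4, prior df 4.09). Its two-sided p-values were adjusted by Benjamini-Hochberg over the kept probes and read at 0.05, and the fit was tested on simulated data. Differences between single arrays were counted at 0.5 on the log2 scale without a test. Where an array did not detect a probe, the lowest signal of a detected probe on that array gave a bound. The counts and the gaps between lines used normalized values and not these bounds. The number of arrays, 1 per condition, limits the precision, and so does signal near background.

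Full values are given for genes that passed the day test with a change of 1 or more, that passed a line test, that differed from WT by 1 or more, or that were brightest in their family. Values of other genes were added where a difference of 0.5 from WT was seen. The genes, marker lists and motifs were chosen with earlier results of these data known. Alternatives covered the background correction, scaling, filter, deposited table, choice of probe, variance prior, line term, test, control and leaving out each line or array. Settings for single-array differences of 6 genes and for the spread between lines were added after seeing the data.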

Additional observations from a re-analysis of the deposited data

Results flagged for a closer look

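Plxna2 in the library labelled MMTR KD was far from the other 4 lines on both days. At d0 it read 8.93 against 8.38 to 8.46, with the gap taking 0.866 of the whole range, and at d3 it read 8.95 against 7.98 to 8.15, with 0.828 of the range. The critical share for 5 samples is 0.71. These were 2 of 54 groups examined, where chance alone flags about 1 in 20, and the 4 other arrays of d3 were below detection.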

How the results depend on the processing

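The 27 day changes were recomputed under 13 alternatives each. Of the 351 values, 308 kept direction and call, 18 lost the call, 15 gained it and 10 changed sign, and 11 genes kept their call and sign throughout. Of the 15 genes that passed, 12 changed by over 1.5 times more with normexp correction (Sema6a 3.41, Unc5b 2.27 and Slit3 1.46), and 3 moved by over 1.5 times with median scaling and 3 with the mean over probes. Median scaling, which shifted the median of all named genes to -0.05, gave 15 rises instead of 9. It also turned the sign of Efnb1 (0.082), Ntn3 (0.048), Plxnb2 (-0.018) and Sema4g (0.14), none of which passed the main test. Leaving out a line gave -0.14 to 0.020 for Efnb1, -0.11 to 0.029 for Ntn3, -0.077 to 0.057 for Plxnb2 and -0.047 to 0.022 for Sema4g. The other settings gave 8 to 13 rises and 4 to 6 falls, the methods' t-test 13 and 4 at its unadjusted threshold and 10 and 4 after Benjamini-Hochberg. The gene passing in MMTR KD over both days numbered 0 to 1 when an array was left out.

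Pairs of gene and line at least 0.5 from WT numbered 6 at d0 and 14 at d3. They became 1 and 2 at a threshold of 1, 37 and 39 with normexp correction, and 1 and 9 against the median of the 5 lines. Pairs that differed between days numbered 48, and became 26 at a threshold of 1 and 90 with normexp correction. Among settings chosen after seeing the data, MMTR-C in place of WT put Ephb4 at -0.49 in MMTR-F and -0.41 in MMTR-N. The cause of these shifts was not tested. The day test sets the days of each line side by side, and without its line term Robo4, Ntn5 and Plxna2 lost the call. Signals near the lowest detectable value limit 12 of the genes.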
